A study of Homo sapiens with 6 samples.

Results

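The plasminogen activator genes and the serpins grouped with them were examined in Hs578T cells after CCN3 knockdown. The group was given as a list of 8 gene symbols, namely PLAU, PLAUR, PLAT, SERPINE2, SERPINB2, SERPINB8, SERPINF1 and SERPINH1. All 8 symbols had a row among the 46427 genes of the count table, and 6 of them were among the 17419 genes with enough counts to be tested. Hs578T is an established line of triple-negative breast cancer cells. Libraries for RNA-seq came from 3 replicates of cells stably transduced with a control shRNA (shCTRL) and from 3 replicates of cells with CCN3 shRNA (shCCN3). Both groups carry the same kind of retroviral pSUPER vector and grew in the same serum-containing medium, each group is 1 transduced line, and the knockdown line carries a single CCN3 shRNA.

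Plasminogen is a serum protein that becomes the protease plasmin when a plasminogen activator cuts it. PLAU encodes urokinase (uPA), which acts at the cell surface bound to its receptor uPAR, the product of PLAUR, and PLAT encodes the tissue-type activator tPA. Serpins inhibit such proteases by trapping them in a covalent complex, and in breast tumors uPA and its receptor are best known for their link to invasion. The serpins of the group have different jobs. SERPINE2 (protease nexin-1) and SERPINB2 (PAI-2) inhibit plasminogen activators, whereas SERPINB8 inhibits furin, SERPINF1 (PEDF) is a secreted serpin without known protease inhibition, and SERPINH1 (HSP47) is a chaperone of procollagen in the endoplasmic reticulum.

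Both plasminogen activator genes, the urokinase receptor gene and SERPINE2 fell after CCN3 knockdown, while SERPINB8 and SERPINH1 did not pass the test and SERPINB2 and SERPINF1 had almost no reads. PLAU fell furthest, to 43.0% of its mean in shCTRL cells, and PLAT, SERPINE2 and PLAUR fell to 71.8%, 74.9% and 76.4% of theirs. Genes were called with edgeR's quasi-likelihood test at an adjusted p under 0.05 (Benjamini-Hochberg over all genes tested). Of the 6 genes tested, 4 were called lower and 0 higher, where 17.3% of all genes tested were called lower, 16.2% higher and 33.4% in either direction. The median log2 fold change (shCCN3 minus shCTRL throughout) was -0.40 over the 6 genes and 0.01 over all genes tested. In RNA from whole cultures, fewer cells with an mRNA and less of it per cell cannot be told apart.

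Start site regions of 6 of the 8 genes were taken from a RefSeq table (GRCh38.p14), as 9 windows of 250 bases before and 50 bases after a start site, and those of PLAT and SERPINF1 were not analysed here. The windows of PLAU, PLAUR and SERPINE2 are shown because these genes fell together, and that of SERPINH1 because it did not pass the test. PLAU, SERPINE2 and SERPINH1 have 2 windows each in the table, of which 1 is printed. For PLAU and SERPINE2 this is the window with more motif matches, for SERPINH1, where both hold 3, the upstream one, and the choice was made after the matches were seen. Each is printed on the strand of its gene, 5′ to 3′, and capitals mark matches on either strand to the motifs searched. These were the motifs of AP-1, an E-box of the MiT/TFE type, TATA, SP1, the heat shock element and TEAD, spelled out with the matches. The PLAU window is chr10:73910882-73911181 (plus strand), PLAUR chr19:43670120-43670419 (minus strand), SERPINE2 chr2:224031429-224031728 (minus strand) and SERPINH1 chr11:75562003-75562302 (plus strand).
PLAU: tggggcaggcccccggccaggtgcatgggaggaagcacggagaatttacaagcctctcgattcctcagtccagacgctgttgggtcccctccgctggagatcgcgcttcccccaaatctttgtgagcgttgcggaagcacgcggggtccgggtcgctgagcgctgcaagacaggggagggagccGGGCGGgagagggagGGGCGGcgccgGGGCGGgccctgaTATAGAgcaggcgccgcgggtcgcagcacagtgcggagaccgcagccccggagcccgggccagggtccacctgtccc
PLAUR: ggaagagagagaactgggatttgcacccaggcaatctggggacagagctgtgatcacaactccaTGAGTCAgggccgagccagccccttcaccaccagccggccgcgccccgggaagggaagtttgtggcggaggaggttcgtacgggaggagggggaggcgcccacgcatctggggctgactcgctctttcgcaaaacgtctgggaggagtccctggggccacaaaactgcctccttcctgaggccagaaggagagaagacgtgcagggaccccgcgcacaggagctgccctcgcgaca
SERPINE2: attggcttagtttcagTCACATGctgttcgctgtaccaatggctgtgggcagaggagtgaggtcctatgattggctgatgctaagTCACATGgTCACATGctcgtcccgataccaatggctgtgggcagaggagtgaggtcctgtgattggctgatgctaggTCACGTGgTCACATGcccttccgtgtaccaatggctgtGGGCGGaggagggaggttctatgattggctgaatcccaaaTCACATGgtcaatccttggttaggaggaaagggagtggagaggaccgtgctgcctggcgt
SERPINH1: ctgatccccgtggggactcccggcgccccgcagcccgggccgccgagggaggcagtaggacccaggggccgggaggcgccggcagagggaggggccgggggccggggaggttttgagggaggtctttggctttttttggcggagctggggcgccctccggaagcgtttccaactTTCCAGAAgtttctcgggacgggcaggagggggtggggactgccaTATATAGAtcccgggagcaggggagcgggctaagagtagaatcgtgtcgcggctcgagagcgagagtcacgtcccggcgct

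The 3 printed windows of genes that fell shared no AP-1, E-box or TATA match. With positions counted from the start site and given for the first base of a match, the PLAU window held a match to TATA (letters TATANA) at -27. It also held 3 matches to SP1 (letters GGGCGG) from -66 to -40. The PLAUR window held 1 match to AP-1 (letters TGANTCA) at -186. AP-1 matches also lay in the windows not printed of SERPINB8, at -185 and -28, and of SERPINB2, at -102. SERPINB8 did not pass the test, and SERPINB2 had almost no reads. Both of their windows held 2 overlapping TATA matches as well. The SERPINE2 window held 6 matches to the E-box (letters TCACNTG) from -234 to -10 and 1 SP1 match at -50. Of 35116 windows of the same length, 15.1% held at least 1 E-box match and 14 held 6 or more. The E-box matches of the printed SERPINE2 window lie in a stretch that recurs along it with few changes. They are therefore not independent of each other, and their number reflects the repeat. The other SERPINE2 window, at chr2:224038591-224038890, held 0 E-box and 2 SP1 matches, and the other PLAU window, at chr10:73910360-73910659, held 0 matches to any motif. AP-1, TATA, SP1, heat shock and TEAD matches occurred in 7.71%, 19.0%, 45.0%, 7.74% and 14.0% of all windows. The SERPINH1 window held 1 match to the heat shock element (letters TTCNNGAA) at -76 and 2 overlapping TATA matches at -31 and -29. The other SERPINH1 window, at chr11:75562223-75562522, held 1 match each to the E-box, TATA and SP1. None of the 4 printed windows held the TEAD motif (letters GGAATG). These matches describe the letters in the windows, and binding was not measured.

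The libraries held between 56159110 and 68393177 counts. CCN3 itself was at 101 ± 2.43 CPM in shCTRL and 47.0 ± 0.469 CPM in shCCN3 cells (counts per 1e6 counts with TMM scaling; means ± SD of 3 libraries, here and below). Of the cell line markers, the mesenchymal gene VIM was at 7778 and 7064 CPM, lower in every shCCN3 library but not called (edgeR adjusted p = 0.0961). The mesenchymal genes FN1 (2362 and 2683 CPM) and ZEB1 (50.7 and 53.9 CPM) did not pass the test either. CDH1 and EPCAM, which are epithelial genes, and the estrogen receptor gene ESR1 averaged at most 0.0711 CPM in either group. PGR was at 2.86 and 3.80 CPM and ERBB2 at 77.9 and 78.2 CPM. The epithelial keratin genes were expressed, with KRT18 called higher (163 to 232 CPM) and KRT8 called lower (log2 fold change -0.52), and the mesenchymal cadherin gene CDH2 was called higher (89.0 to 162 CPM). The second shCCN3 library differed most from its group, with chi-squares per degree of freedom of 34.7 and 42.5 against 6.75 to 20.7 for the other pairs within a group.

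PLAU was among the most abundant mRNAs, at rank 121 of 17419 genes tested by mean CPM. It was at 1143, 1176 and 1178 CPM in the shCTRL libraries and at 486, 523 and 496 CPM in the shCCN3 libraries. The groups were far apart, and the spread within each was small, with coefficients of variation of 1.72% and 3.84%. On the log2 scale PLAU fell by 1.22 (SE 0.0545, 95% interval -1.34 to -1.09, edgeR adjusted p = 6.7e-07). PLAU was the 1 gene of the 6 that changed at least 2-fold, where 8.1% of all genes tested were called with such a change, 3.93% lower and 4.17% higher. Among the 2120 genes tested with a mean of at least 100 CPM, 13 had a lower log2 fold change.

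PLAT, the gene of the other activator, was at 581, 601 and 591 CPM in the shCTRL libraries and at 431, 417 and 425 CPM in the shCCN3 libraries. Every shCCN3 library was well below the lowest shCTRL library. The decrease of PLAT was smaller than that of PLAU, with a log2 fold change of -0.48 (SE 0.0513, 95% interval -0.59 to -0.36, edgeR adjusted p = 0.000114). Together, PLAU and PLAT summed to 1757 ± 28.6 CPM in shCTRL and 926 ± 12.4 CPM in shCCN3 cells, and PLAU made up 66.4% ± 0.224 and 54.2% ± 1.35 of this sum.

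PLAUR encodes the GPI-anchored urokinase receptor. Its mRNA was at 65.5, 71.1 and 70.6 CPM in the shCTRL libraries and at 49.8, 58.6 and 49.8 CPM in the shCCN3 libraries. All shCCN3 libraries were below the shCTRL libraries, and the second shCCN3 library stood nearest to them. PLAUR fell by 0.39 on the log2 scale (SE 0.0788, 95% interval -0.57 to -0.21, edgeR adjusted p = 0.00452).

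SERPINE2, a secreted inhibitor of urokinase, tPA and thrombin, was at 645, 637 and 640.3 CPM in the shCTRL libraries and at 465, 495 and 480.0 CPM in the shCCN3 libraries. The shCTRL libraries were nearly alike, and no shCCN3 library came into their range. SERPINE2 fell by 0.42 on the log2 scale (SE 0.0525, 95% interval -0.54 to -0.30, edgeR adjusted p = 0.000301).

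SERPINB8, the furin inhibitor, was at 13.1, 15.2 and 15.3 CPM in the shCTRL libraries and at 14.7, 18.1 and 16.6 CPM in the shCCN3 libraries. The groups overlapped, and the log2 fold change of 0.18 (95% interval -0.05 to 0.41, edgeR adjusted p = 0.210) did not pass the test. SERPINH1, the procollagen chaperone, was at 194, 195 and 206 CPM in the shCTRL libraries and at 198, 223 and 194 CPM in the shCCN3 libraries. Here too the groups overlapped, and the log2 fold change was 0.05 (95% interval -0.10 to 0.20, edgeR adjusted p = 0.622).

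SERPINB2 and SERPINF1 could not be compared. SERPINB2 had 8 counts in the second shCTRL library and 0 counts in each of the other libraries. SERPINF1 had 0 counts in all 6 libraries. A count of 0 allows up to 3 counts in a library, or 0.0435 to 0.0540 CPM, which covers counting error only.

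Groups of libraries without overlap were common. They were found for 4 of the 6 tested genes, all lower in shCCN3 cells, and for 46.3% of all genes tested, namely 23.6% lower and 22.7% higher. For a single gene, an exact permutation test of 3 libraries against 3 cannot give a two-sided p below 0.1, the value obtained for each of PLAU, PLAT, PLAUR and SERPINE2.

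**Figure D1:**
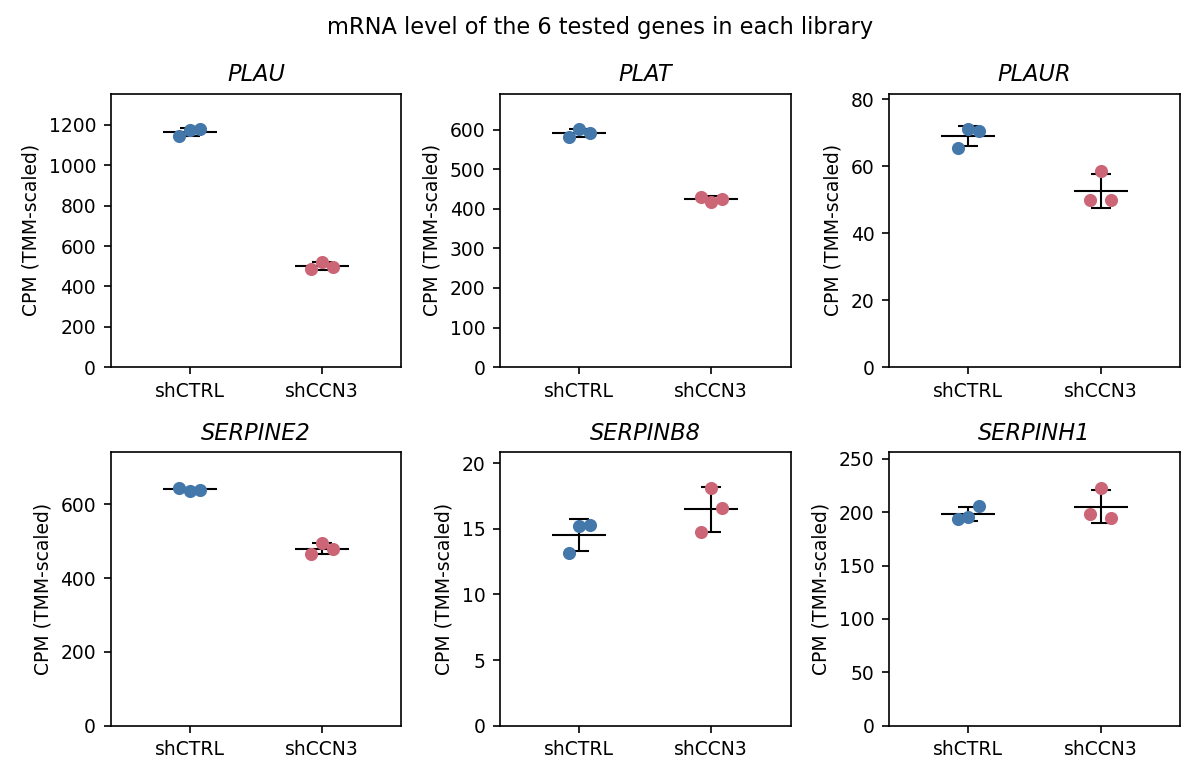
CPM of PLAU, PLAT, PLAUR, SERPINE2, SERPINB8 and SERPINH1 in each library (points) of shCTRL and shCCN3 cells, with the mean and SD of 3 libraries (lines). PLAU, PLAT, PLAUR and SERPINE2 are lower in every shCCN3 library, from 1166 to 501 CPM on average for PLAU, whereas the points of SERPINB8 and SERPINH1 overlap.

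Among the 4 genes that fell, PLAU fell by the largest factor, and the ratios among PLAT, SERPINE2 and PLAUR overlapped between the groups. Levels of different genes were compared as CPM per kilobase of all annotated exons of a gene, and the pairs were chosen after the values were seen. On this scale the ratio of PLAU to PLAT was 4.43 ± 0.0446 in shCTRL and 2.65 ± 0.146 in shCCN3 cells. The ratio of PLAU to SERPINE2, an activator over its inhibitor, was 5.48 ± 0.126 and 3.15 ± 0.0345. That of PLAU to PLAUR was 25.5 ± 0.718 and 14.4 ± 0.823. These 3 ratios had no overlap between the groups. In contrast, PLAT to SERPINE2, also an activator over its inhibitor, was 1.24 ± 0.0280 and 1.19 ± 0.0568, and the groups overlapped. The same held for PLAUR to SERPINE2, with 0.215 ± 0.0108 and 0.219 ± 0.0152, and for PLAUR to PLAT, with 0.173 ± 0.00536 and 0.185 ± 0.0207. PLAU to CCN3 was 10.5 ± 0.399 and 9.66 ± 0.384, barely without overlap. Its lowest shCTRL value was 10.08 and its highest shCCN3 value 10.05, a gap smaller than either SD. Of 7 ratios compared, those without overlap had the smallest two-sided p that exact permutation allows, 0.1, or 0.175 after Benjamini-Hochberg adjustment. The change of a ratio between the groups does not depend on the gene lengths, which cancel.

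With all exons counted, PLAU had the highest level per kilobase, at 395 ± 6.81 CPM per kilobase in shCTRL and 170.0 ± 6.52 in shCCN3 cells. PLAT followed with 89.3 and 64.1, SERPINE2 with 72.1 and 54.0 and SERPINH1 with 31.6 and 32.7 CPM per kilobase. PLAUR with 15.5 and 11.8 and SERPINB8 with 2.48 and 2.81 were lowest of the 6. Neighbours in this order did not overlap within either group. The order of PLAT and SERPINE2 turned in both groups when the length of the principal transcript took the place of all exons, and SERPINE2 was then also just above PLAU in shCCN3 cells.

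The 6 tested genes lie on different chromosomes (positions from GENCODE release 29, GRCh38), and each was set beside its 24 nearest tested genes. PLAU lies on chromosome 10 from 73909177 to 73917497, the median log2 fold change of its neighbours was -0.10, and 0 of them were lower than PLAU. The neighbours of PLAUR (chromosome 19) and SERPINE2 (chromosome 2) had medians of 0.01 and 0.03, and 4 and 2 of them were lower than the gene itself. PLAT differed. It lies on chromosome 8 from 42175233 to 42207724, and its neighbours had a median of -0.29. Of these 24 neighbours, 16 were called lower and 1 higher, where 17.3% and 16.2% of all genes tested were. The median of the 528 genes tested on that chromosome was nevertheless 0.11. The log2 fold change minus the median of the neighbours was -0.19 for PLAT, -1.12 for PLAU, -0.40 for PLAUR and -0.44 for SERPINE2. The part of the surrounding region in the fall of PLAT was not tested.

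Some exons are shared with other genes. PLAU shares 916 exon bases with C10orf55 on the opposite strand, which was at 6.25 and 5.52 CPM in shCTRL and shCCN3 cells. SERPINB8 shares 257 exon bases with an antisense RNA at 0.153 and 0.107 CPM and 370 with HMSD, and SERPINB2 shares 547 with SERPINB10. HMSD and SERPINB10 had 0 counts. The libraries were stranded, but whether the counting used the strand is not given in the sources used here.

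By Pearson correlation of log2 CPM over the 6 libraries, the genes most like PLAU were EEF1A2, ENTPD6 and LAMA4, each with r = 0.9997 or 0.9996. Their log2 fold changes were -4.30, -0.66 and -1.79. A correlation with PLAU above 0.99 was found for 324 of 17419 genes tested, and all of these points share the difference between the same groups of libraries.

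Other genes came from a list of 21 genes, named the plasminogen system here. The list also holds genes of blood clotting, such as F3, TFPI, THBD and SERPIND1, and leaves out the tPA inhibitor gene SERPINI1. Of the 21 genes, 12 were tested. At an adjusted p under 0.05, 6 were called lower and 3 higher, where 17.3% and 16.2% of all genes tested were. The median log2 fold change of the 12 genes was -0.20. F12, the coagulation factor XII gene, fell from 5.92 ± 0.197 to 4.05 ± 0.487 CPM. S100A10, a subunit of a plasminogen receptor, and MRC2, a collagen uptake receptor gene, fell by 0.27 and 0.25 on the log2 scale.

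F3, which encodes tissue factor, rose from 52.4 ± 3.72 to 79.9 ± 7.23 CPM (log2 fold change 0.61, edgeR adjusted p = 0.000521). TFPI, the inhibitor of tissue factor, rose from 85.4 ± 1.98 to 121 ± 3.19 CPM (log2 fold change 0.50, edgeR adjusted p = 0.000135). The plasminogen receptor genes ANXA2, ENO1 and PLGRKT had log2 fold changes of 0.02, -0.14 and 0.23 and did not pass the test. Of these, PLGRKT was higher in every shCCN3 library and near the threshold (edgeR adjusted p = 0.0586). The rule for naming genes, given below, does not cover these receptor genes. The 4 remaining calls are named after their values were seen. THBD, TFPI2 and SERPIND1, with log2 fold changes of -1.66, -1.18 and -2.71, had means below 1 CPM over the 6 libraries. Their neighbours had medians of -0.41, -0.36 and -0.16, and the part of these regions was not tested. SERPINA5 had 0 counts in the shCTRL libraries and 0.379 CPM in shCCN3 cells, at least 7.93-fold higher than the 3 counts that a 0 allows per library. PLG, the plasminogen gene itself, had 0 counts in every library, as did A2M, CPB2, HRG, LPA and PZP, and SERPINF2, the gene of the plasmin inhibitor, averaged 0.0561 and 0.0120 CPM. KLKB1 and VTN averaged at most 0.166 CPM.

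A further 16 genes encode uptake receptors for protease-serpin complexes or partners of the urokinase receptor. Of these, 14 were tested, and 6 were called lower and 3 higher, where 17.3% and 16.2% of all genes tested were. The median log2 fold change of the 14 genes was -0.19. SORL1, a sorting receptor, fell from 11.9 ± 0.979 to 2.93 ± 0.517 CPM. LRP8 and CAV1 fell by 0.73 and 0.65 on the log2 scale, with medians of -0.21 and -0.45 among their neighbours. LRP1, the main endocytic receptor of such complexes, is named after its values were seen and was at 208, 218 and 202 CPM in the shCTRL libraries and 141, 114 and 162 CPM in the shCCN3 libraries (log2 fold change -0.59, edgeR adjusted p = 0.00311). ITGAV, a subunit of vitronectin receptors, rose by 0.80 on the log2 scale and VLDLR by 0.70. IGF2R was called higher near the threshold, with a log2 fold change of 0.38 (edgeR adjusted p = 0.0487). Its groups of libraries overlapped, and its neighbours had a median of 0.45.

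Among 16 substrates of plasmin or urokinase, 11 were tested, with a median log2 fold change of 0.17. Calls were made for 2 as lower and 3 as higher, where 17.3% and 16.2% of all genes tested were called so. LTBP1, which tethers latent TGF-β to the matrix, fell from 438 ± 28.8 to 253 ± 33.9 CPM, and MMP14 fell by 0.28 on the log2 scale. THBS1, the thrombospondin-1 gene, rose from 468 ± 56.1 to 812 ± 136 CPM. VEGFA rose by 0.41 on the log2 scale among neighbours with a median of 0.33, and MMP13, named after its values were seen, had a mean below 1 CPM over the 6 libraries.

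Most of the 8 listed proteases that these serpins may meet were not expressed, and 2 were tested. FURIN rose from 168 ± 7.60 to 193 ± 7.73 CPM (edgeR adjusted p = 0.0302). HTRA1, a secreted serine protease, fell from 247 ± 10.6 to 69.2 ± 4.95 CPM (log2 fold change -1.83). Of 5 listed receptors of the SERPINF1 protein, 3 were tested and 0 were called, where 33.4% of all genes tested were called in either direction.

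Most partners of SERPINH1 in procollagen folding did not pass the test. Of 14 genes, all tested, 9 were not called, 3 were called lower and 2 higher, where 17.3% and 16.2% of all genes tested were, and their median log2 fold change was -0.02. PLOD2, a lysyl hydroxylase of collagen telopeptides, rose from 188 ± 16.9 to 355 ± 39.1 CPM. P4HA1 rose by 0.20 on the log2 scale, near the threshold (edgeR adjusted p = 0.0476). PLOD3, a related hydroxylase, fell from 208 ± 11.6 to 128 ± 4.72 CPM, and PDIA4 and P3H1 fell by 0.31 and 0.29 on the log2 scale. The neighbours of PLOD3, PDIA4 and P3H1 had medians of -0.62, -0.42 and -0.34, and the part of these regions was not tested.

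**Figure D2:**
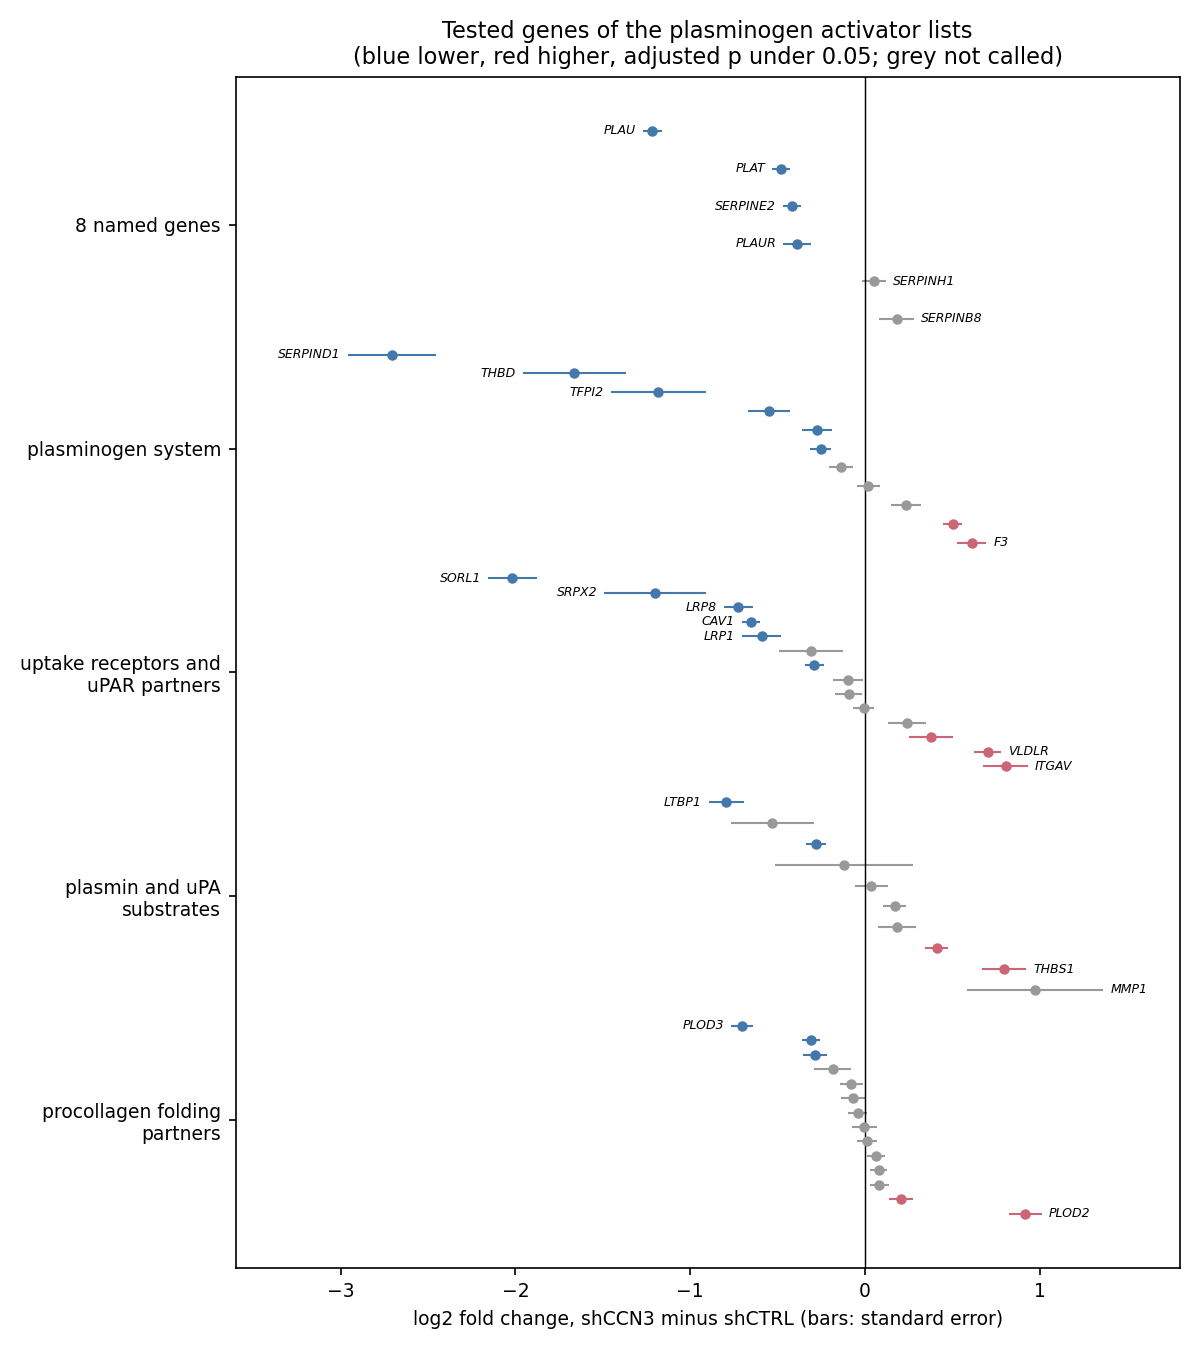
Log2 fold change of each tested gene (bars: standard error), shCCN3 minus shCTRL, by list, with genes called lower in blue, called higher in red and not called in grey, and genes without counts in shCTRL cells (SERPINA5, MMP13) not drawn. PLAU, PLAT, SERPINE2 and PLAUR lie to the left of 0. Of the 12 tested genes listed under plasminogen system, which include clotting genes, 9 were called, 6 of them lower. Of all genes tested, 33.4% were called in either direction and 17.3% were called lower.

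SERPINB2 and SERPINB8 belong to a row of 10 related serpin genes on chromosome 18, of which SERPINB8 was the 1 gene tested. SERPINB3, SERPINB4, SERPINB10, SERPINB11, SERPINB12 and SERPINB13 had 0 counts in all libraries, and SERPINB5 and SERPINB7 averaged at most 0.0775 CPM. In a smaller row on chromosome 6, SERPINB6 rose from 109 ± 5.73 to 137 ± 12.3 CPM (log2 fold change 0.32, edgeR adjusted p = 0.0101). SERPINB1, with 47.2 ± 1.64 and 51.8 ± 3.95 CPM, did not pass the test, and SERPINB9 had 0 counts. The 24 genes nearest to SERPINB6 had a median of 0.13 and the 779 genes tested on chromosome 6 one of 0.35, and the part of the chromosome in the rise of SERPINB6 was not tested.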

How the data were processed

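RNA-seq was measured in 3 shCTRL and 3 shCCN3 libraries of Hs578T cells, prepared with a stranded mRNA kit. The authors deposited raw read counts per NCBI Gene ID, 1 column per library, without normalization. The submitters' processing notes name GRCh38, bcl2fastq 2.20.0, Trimmomatic, HISAT2 2.1.0, StringTie 2.1.3d and DESeq2. The annotation release, the strand setting and how the counts were derived are not given in the sources used here. Libraries were grouped by their labels, and columns were matched by name. The series describes its replicates as independent. Each group is 1 transduced line, so the p-values rest on the spread within a line and not between transductions or shRNAs.

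The counts were tested in R 4.3.3 with the quasi-likelihood method of edgeR 4.0.16 on the 17419 genes that passed its group-wise expression filter, with TMM scaling, which also gave the CPM, and Benjamini-Hochberg adjustment. The SE of a log2 fold change is its size over the square root of the F statistic. Exact permutation tests used SciPy 1.17.1. Alternatives were size factors of DESeq2, upper-quartile scaling, no filter, a minimum of 10 counts in all samples, limma-voom (limma 3.58.1), DESeq2 1.42.0, the exact test of edgeR, a replicate block and each library left out. Scripts were tested on simulated data. Gene positions and exon lengths came from GENCODE release 29, matched by Gene ID for 26551 genes, and 14932 of the genes tested had a position. Promoter windows came from RefSeq.

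The 8 genes, the lists and the tests were chosen with earlier results of these data known. A gene of the pathway is not reported here. Named from each list were up to 3 genes per direction with the largest change among those with an adjusted p under 0.05 and a mean of at least 1 CPM, the genes of the plasminogen system at or near 0, both serpin rows and all other SERPIN genes called at that mean. Likeness was measured for the gene of the 8 with the largest change among those with a mean of at least 10 CPM. The replicate numbers are shared by both groups in the labels, and the check of pairing is given with the alternatives.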

Additional observations from a re-analysis of the deposited data

How the results depend on the processing

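The call of PLAU, PLAT, PLAUR and SERPINE2 as lower held under all 14 other settings, with 4 genes called in each, of 6 tested or, without the filter, of 7. Their log2 fold changes stayed between -1.25 and -1.19 for PLAU, -0.49 and -0.46 for PLAT, -0.47 and -0.35 for PLAUR and -0.44 and -0.39 for SERPINE2, and their highest adjusted p was 0.0299, for PLAUR. SERPINB8, with log2 fold changes between 0.11 and 0.26, kept an adjusted p above 0.05 throughout. SERPINH1 did so too, with log2 fold changes from -0.010 without shCCN3 replicate 2 to 0.087 without shCCN3 replicate 3. All genes called numbered 4181 to 7229 with a library left out and 4887 to 6227 otherwise, genes of the plasminogen system 7 to 10, and CCN3 stayed between -1.12 and -1.09. With the length of the principal transcript, an alternative chosen after seeing the data, the log2 ratio of PLAT over SERPINE2 per kilobase was -0.42 in shCTRL and -0.48 in shCCN3 cells in place of 0.31 and 0.25, and that of PLAU over PLAT was 0.46 in shCCN3 cells, so that SERPINE2 came just above PLAU there.

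A block on the replicate number left 4887 genes called in place of 5825, of which 4816 were shared, and 4 of the 8 genes and 8 genes of the plasminogen system. Same-numbered libraries deviated from their group means with correlations of 0.0891, -0.0256 and -0.0657 across genes, so that the numbers were not taken as pairs, and not every library correlated best with its own number. Genes below 1 CPM are limited by depth, since 3 counts come to 0.0435 to 0.0540 CPM.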

Other observations

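The table holds 29 further SERPIN genes that were examined, pseudogenes left out. Of these, 8 were tested, and 16 had 0 counts in all libraries. By edgeR's quasi-likelihood test 4 were called higher and 2 lower, where 16.2% and 17.3% of all genes tested were. These calls include SERPINA5, SERPINB6 and SERPIND1, which are already given above with the other lists. SERPING1, which encodes the C1 inhibitor of the complement cascade, rose from 2.96 ± 0.0569 to 7.30 ± 0.746 CPM (log2 fold change 1.30, SE 0.115, edgeR adjusted p = 3.5e-05). SERPINI1, which encodes neuroserpin, an inhibitor of tPA, fell from 8.41 ± 0.321 to 3.87 ± 0.723 CPM (log2 fold change -1.12, SE 0.138, edgeR adjusted p = 0.000261). The genes nearest to SERPING1 and SERPINI1 had medians of 0.03 and 0.14. SERPINA1, named after its values were seen, was called higher at a mean below 1 CPM over the 6 libraries.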
